A study of Caenorhabditis elegans with 2 samples.

Results

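The muscle attachment genes of the nematode Caenorhabditis elegans described here were a fixed list of 10 genes for the dense body, the M-line and the integrin complex, and all 10 were found by name among the 19973 protein-coding genes of the nuclear chromosomes in the Ensembl annotation of WBcel235. Binding of CEH-18, a POU homeodomain transcription factor, was measured by chromatin immunoprecipitation and sequencing in 1 group with 2 biological replicates. The group was whole hermaphrodite late embryos of the strain OP533, genotype unc-119(tm4063) III; wgIs533, taken 3 h after synchronization by egg bleaching. The worms carried a transgene, wgIs533, that adds GFP and FLAG to the C-terminus of CEH-18, in an unc-119 mutant background. The labels describe precipitation with an antibody against GFP but list ceh-18 in the antibody field, so it is uncertain whether untagged protein was also precipitated. Nothing beyond the word biological says that the replicates came from separate cultures. Because whole embryos were used, the cells that held the bound chromatin cannot be told apart.

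In body wall muscle, integrins in the cell membrane join the contractile filaments to the basement membrane. On the outside they meet perlecan, and on the inside kindlin, integrin-linked kinase, PINCH and parvin gather beneath them at dense bodies, which anchor thin filaments as vertebrate Z-disks and focal adhesions do, and at M-lines, which anchor thick filaments. Embryos that lack the main components fail to assemble muscle and stop elongating, the phenotype behind the gene name pat.

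All 10 genes had a thresholded summit either within the locus or within the promoter window, where 13.7% of all protein-coding genes had one in either, and 6 had one in the promoter window. The count of 10 in either place was not among the planned counts, and unc-98 enters it only through its window. A summit is the position of highest signal in a peak, and signal is the authors' own peak height, whose scale is not stated. The thresholded list holds the 2575 peaks that passed the authors' irreproducible discovery rate (IDR) step. The pooled list holds all 28466 candidate peaks of both replicates together, background included, and ranks run from 1 for its highest signal. A locus ran from the upstream neighbouring protein-coding gene to the end of the gene body, and the promoter window covered the 1000 bp before and the 200 bp after the 5′ end of the gene. The genes with a thresholded summit in the window were unc-112, unc-98, pat-3, unc-97, pat-6 and unc-95, or 6 of 10, where the background over all protein-coding genes was 7.20%. Within the loci there were 12 thresholded summits at 9 of the 10 genes, where 13.0% of all genes had at least 1, and 3 of the 10 had 2, where 2.75% of all genes had 2 or more. No test was made, since the genes were chosen with earlier results of these data known.

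These loci were longer than usual. The median locus was 7683 bp, against 3540 bp over all genes, and the median distance to the upstream neighbour was 2564 bp, against 937 bp. Per length, the 12 summits in 119.6 kb came to 1.00 per 10 kb, and to 1.51 without the locus of unc-52, which alone spanned 46.9 kb and held 1 of the 12. The whole nuclear genome had 0.257 per 10 kb, with coding sequence included there as in the loci. It also counts sequence downstream of genes that lies in no such locus. The density over the loci of all genes was not measured. Of the 12, 10 lay upstream of the gene in intergenic sequence, 2 in introns of the gene itself, and none in an exon. None was within 200 bp of an annotated non-coding gene.

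**Figure D1:**
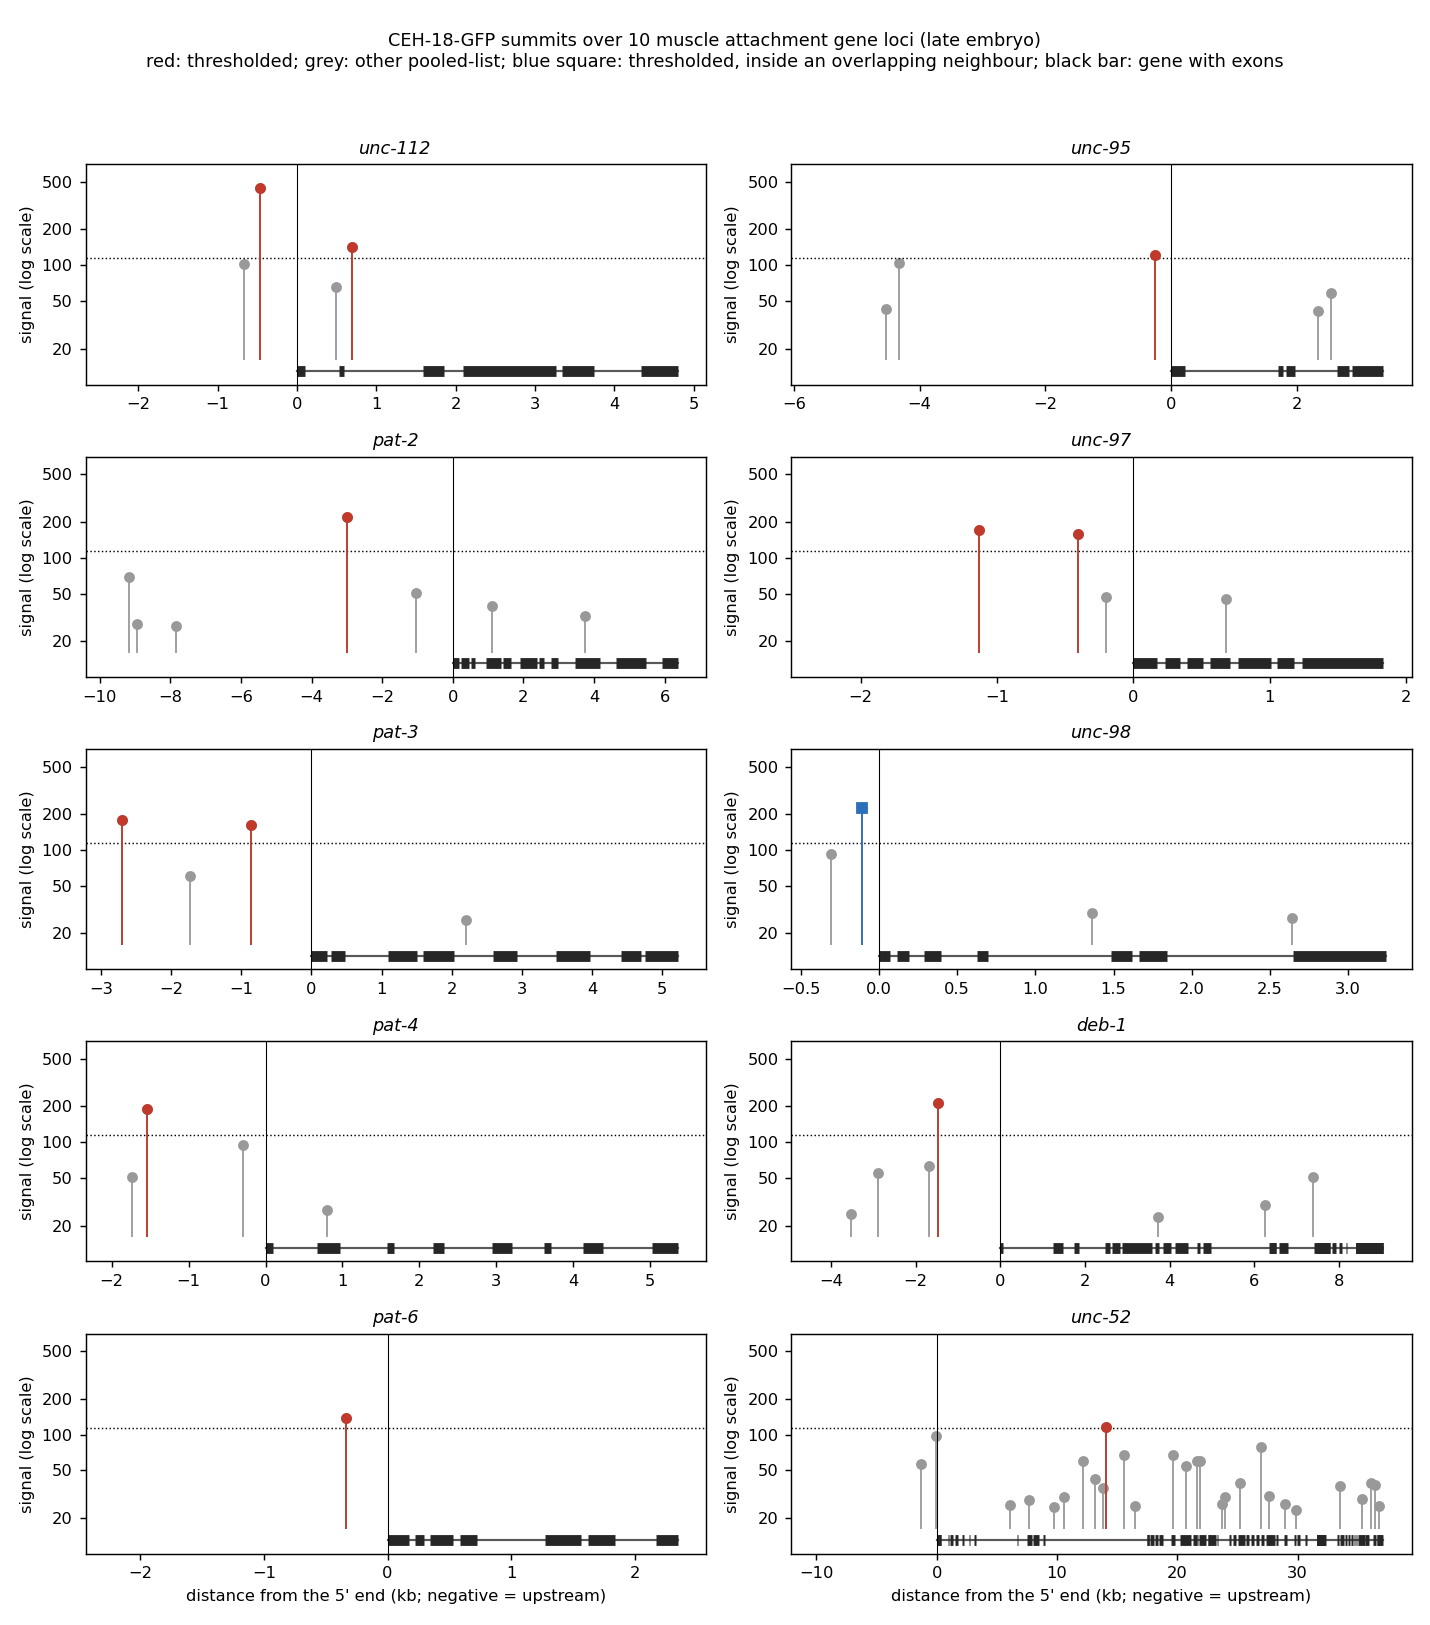
Summits over the 10 loci, with the distance from the 5′ end of each gene in kb on the horizontal axis (each panel has its own range) and peak signal on a logarithmic vertical axis. Red points are thresholded summits, grey points are other summits of the pooled list, the blue square is the unc-98 summit inside pcyt-1, black blocks are exons, and the dotted line is the lowest thresholded signal, 114. Red points stand upstream of the gene in 8 of the 10 panels, and at unc-52 the only red point is in the gene body.

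The sequence under 6 of these summits is shown because the results turn on them: the strongest summit of the set (unc-112), the summit inside the neighbour of unc-98, the most repeat-rich windows (pat-4 and pat-6), and the summits of pat-2 and deb-1, which lie outside the promoter window. Each window is 151 bases centred on the summit, read from the RefSeq copy of WBcel235 on the strand of the gene and written 5′ to 3′. Capitals mark every GAGAGA, which on the opposite strand reads TCTCTC.
unc-112, V:14697048-14697198, minus strand: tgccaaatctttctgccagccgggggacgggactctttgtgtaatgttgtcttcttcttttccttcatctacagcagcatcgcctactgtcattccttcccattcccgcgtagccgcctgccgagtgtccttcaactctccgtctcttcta
unc-98, X:7573652-7573802, minus strand: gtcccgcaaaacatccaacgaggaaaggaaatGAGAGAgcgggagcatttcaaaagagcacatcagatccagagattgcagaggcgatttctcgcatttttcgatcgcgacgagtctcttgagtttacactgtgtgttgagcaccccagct
pat-4, III:96270-96420, minus strand: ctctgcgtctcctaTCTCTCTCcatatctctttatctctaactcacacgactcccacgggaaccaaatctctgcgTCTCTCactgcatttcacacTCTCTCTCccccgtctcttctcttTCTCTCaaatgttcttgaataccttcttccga
pat-6, IV:264490-264640, minus strand: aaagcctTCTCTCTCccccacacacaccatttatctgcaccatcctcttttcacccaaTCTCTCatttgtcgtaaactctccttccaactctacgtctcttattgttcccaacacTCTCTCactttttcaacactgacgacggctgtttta
pat-2, III:8815820-8815970, plus strand: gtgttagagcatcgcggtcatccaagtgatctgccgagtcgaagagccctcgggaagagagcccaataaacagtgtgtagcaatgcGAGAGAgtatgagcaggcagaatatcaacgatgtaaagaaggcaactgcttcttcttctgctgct
deb-1, IV:7095675-7095825, minus strand: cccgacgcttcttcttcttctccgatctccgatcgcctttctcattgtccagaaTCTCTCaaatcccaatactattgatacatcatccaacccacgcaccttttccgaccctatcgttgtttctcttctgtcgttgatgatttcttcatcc

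The integrin genes both had a thresholded summit in the locus, pat-3 in its promoter window and pat-2 only far upstream. The gene pat-3 (WBGene00003930, III:3908931-3914149, minus strand) encodes the β-integrin subunit. Its window summit lay 867 bp upstream, in the peak III:3914774-3915257, with a signal of 161 and rank 1465. The signal there was 89.7 in replicate 1 (rank 1221) and 73.7 in replicate 2 (rank 1789). A second thresholded summit, 2693 bp upstream of pat-3 with a signal of 177, was only 125 bp upstream of the divergent neighbour ccdc-47 and lay in that gene's promoter window. With each summit given to the nearest 5′ end, the second would belong to ccdc-47. Between them the pooled list had a weaker summit 1727 bp upstream (signal 60.9), with a −log10 q of 1.25 as deposited by the authors, short of the 1.3 that stands for a q of 0.05.

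The gene pat-2 (WBGene00003929, III:8818899-8825266, plus strand) encodes the α-integrin subunit that pairs with PAT-3 in muscle. It had no summit in its promoter window in any of the 4 lists. Its thresholded summit lay 3004 bp upstream, within the 9603 bp that separate it from prx-19, in the peak III:8815653-8816136. The signal was 220 (rank 764), with 109 in replicate 1 (rank 833) and 108 in replicate 2 (rank 825), so the replicates placed it almost alike. No protein-coding 5′ end lay closer to this summit than that of pat-2. The only other pooled summit of the locus with a q of at most 0.05 was 445 bp upstream of prx-19 (signal 68.9).

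The 4 genes for the proteins that gather at the integrin tail held 6 of the 12 locus summits. The gene unc-112 (WBGene00006836, V:14691855-14696654, minus strand) encodes kindlin, which binds the β-integrin tail. Its summit 469 bp upstream, in the peak V:14696892-14697318, had the highest signal of the set, 448 (rank 115), and stood at place 73 among the 1438 genes with a thresholded summit in their window. It measured 236 in replicate 1 (rank 99) and 213 in replicate 2 (rank 134). A second thresholded summit lay 697 bp downstream of the 5′ end, in intron 2, with a signal of 143 (64.8 and 81.5 in replicates 1 and 2). In each replicate the upstream summit was the higher.

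The gene pat-4 (WBGene00003931, III:89453-94809, minus strand) encodes integrin-linked kinase, a scaffold of the complex. Its thresholded summit lay 1536 bp upstream, beyond the promoter window, with a signal of 189 (rank 1073). This summit differed most between the replicates, with 77.4 in replicate 1 (rank 1593) and 115 in replicate 2 (rank 712). It was 773 bp downstream of the 5′ end of the short gene C29F9.8, past the end of that gene, so by nearest 5′ end it would not belong to pat-4. Inside the window of pat-4, 289 bp upstream, the pooled list had a summit of signal 94.5 (rank 3407, −log10 q 2.99), below the lowest thresholded signal of 114.

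The gene pat-6 (WBGene00003932, IV:261886-264232, minus strand) encodes actopaxin, the parvin of the worm. It had the simplest locus, with 1 summit in each list. In the thresholded list this lay 333 bp upstream, in IV:264323-264806, with a signal of 138 (rank 1903), and it measured 66.1 and 74.2 in replicates 1 and 2. The gene unc-97 (WBGene00006826, X:5593133-5594965, plus strand) encodes PINCH, a protein of LIM domains. It had thresholded summits 405 bp upstream (signal 158; 83.2 and 78.6 in replicates 1 and 2) and 1129 bp upstream (signal 170; 97.6 and 69.2). The farther one lay just outside the window and was stronger in replicate 1 than the nearer one, while in replicate 2 the order was reversed.

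The genes for the actin link and for the proteins that also enter the nucleus had thresholded summits in different places. The gene deb-1 (WBGene00000942, IV:7085215-7094266, minus strand) encodes vinculin, which ties dense bodies to actin. None of the 4 lists had a summit in its window. Its thresholded summit lay 1484 bp upstream of the 5′ end, with a signal of 211 (rank 850), and measured 115 in replicate 1 and 97.8 in replicate 2, at the same base in both. No annotated start of its 8 transcripts was closer to this summit than the 5′ end of the gene.

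The gene unc-95 (WBGene00006824, I:14381360-14384737, minus strand) encodes a LIM domain protein of dense bodies and M-lines. Its window summit 256 bp upstream was the weakest in the windows of the set, with a signal of 122 (rank 2322). It measured 63.9 in replicate 1 (rank 2221) and 57.8 in replicate 2 (rank 2659). With only the 2575 strongest peaks of replicate 2, this summit fell out, and 5 of the 10 genes had a window summit, against a background of 7.53%. A further pooled summit 4330 bp upstream had a signal of 105 (−log10 q 2.92), and was closer to the 5′ end of the neighbour lev-10, at 1266 bp.

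The gene unc-98 (WBGene00006827, X:7570374-7573619, minus strand) encodes a zinc finger protein that binds UNC-97. Its 5′ end lies inside pcyt-1, a gene on the opposite strand, so its locus as defined held no upstream sequence and no thresholded summit. The 2 pooled summits in its body had signals of 29.5 and 26.7, and replicate 1 had none there. A strong thresholded summit nevertheless lay 108 bp upstream of unc-98, in an intron of pcyt-1, in the peak X:7573485-7573968. Its signal was 226 (rank 721), with 128 in replicate 1 (rank 572) and 97.9 in replicate 2 (rank 1044). It was also 99 bp upstream of F08C6.18, a gene annotated over the start of unc-98 on the same strand. The summit was outside the promoter window of pcyt-1.

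The matrix gene unc-52 (WBGene00006787, II:14647321-14684456, minus strand) encodes perlecan, the basement membrane proteoglycan to which the muscle integrins attach. It had the most pooled summits, 28, and the weakest thresholded one. That summit lay 14062 bp downstream of the 5′ end, in an intron of 8781 bp (intron 11), with a signal of 115 (rank 2538), and measured 62.2 and 56.6 in replicates 1 and 2. The nearest of the 8 annotated transcript starts of unc-52 lay 3451 bp downstream of it. At the 5′ end itself, 26 bp upstream, the pooled list had a summit of signal 97.8 (rank 3235, −log10 q 2.97), which did not pass the IDR threshold. Of the 26 pooled summits within the gene body, 4 had a q of at most 0.05, and those other than the thresholded one had signals of 66.8, 66.8 and 77.8.

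Beyond the 12 thresholded summits, the pooled list had 54 more over the 10 loci. Of these, 10 had a q of at most 0.05, with signals from 63.3 to 105, and 44 did not. The replicate lists had 69 and 53 summits over the same loci. When summits of the pooled list with a q of at most 0.05 were counted, 8 of the 10 genes had one in the window, with pat-4 and unc-52 added, but so did 15.0% of all genes. Somewhere in the locus 9 of the 10 had one, against 25.3% of all genes. Both counts were chosen after the data were seen.

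The count of genes with a window summit moved with the window and with the list. A window of 500 bp upstream and 100 bp downstream held a thresholded summit at 5 of the 10 genes, where pat-3 dropped out, against 5.50% of all genes. With 2000 bp upstream it was 8, with pat-4 and deb-1 added, against 10% of all genes. By the nearest 5′ end it was 7, with pat-2 and deb-1 added and unc-98 dropped, against 10.4%, and with the start of every transcript it was 6, against 8.01%. With only the 1287 thresholded peaks of highest signal, unc-112 and unc-98 remained in the window, 2 of the 10, against 3.78%, and 5 had a locus summit, against 7.19%. The strongest peaks of replicate 1 alone gave 6 genes in the window, against 6.80%, and 9 in the locus, against 12.6%. Those of replicate 2 alone gave 7 in the locus, against 13.1%.

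In no list were neighbouring summits closer than 199 bp. Over these genes, 9 pairs of pooled summits were 199 to 211 bp apart, and in 6 of them the stronger was a thresholded summit. At unc-112, the summit of signal 448 had a companion of signal 103 lying 201 bp farther upstream, and at deb-1 the summit of 211 had one of 63.3 at 206 bp. In the whole pooled list, 3342 of the 9456 gaps of up to 1000 bp (35.3%) were between 190 and 220 bp, and none was below 190. Sites closer together than this cannot be told apart here. The counts of pooled summits include such companions. Those at a q of at most 0.05 include the 2 just named. They also include a companion of the unc-112 intron summit, 496 bp downstream of the 5′ end (signal 65.9). These counts are therefore not counts of separate sites.

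The replicates agreed closely at these genes. All 12 summits were overlapped by a peak in both replicate lists, with the nearest summit there at most 79 bp away and a median of 14.5 bp in replicate 1 and 20 bp in replicate 2. All 12 were among the 2575 strongest peaks of replicate 1, and 10 were among those of replicate 2, the exceptions being unc-95 and unc-52. After division by the median of each replicate (87.2 and 88.2), the log2 ratio of replicate 1 to replicate 2 had an SD of 0.28 over the 12, against 0.44 over all 2565 thresholded peaks found in both. Only pat-4 (−0.55) and the farther unc-97 summit (0.51) exceeded that SD. The thresholded peaks had passed the IDR step, a filter on reproducibility, so this is no independent evidence of agreement.

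**Figure D2:**
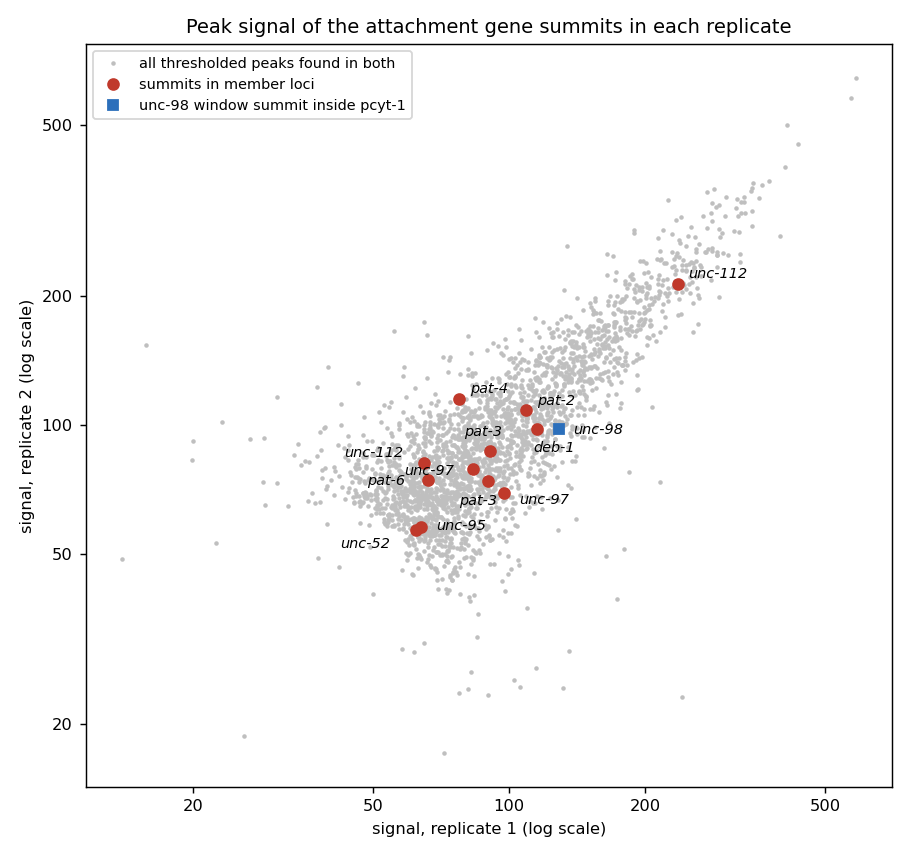
Signal of each thresholded peak in replicate 1 (horizontal) and replicate 2 (vertical), both on logarithmic axes. Grey points are all 2565 thresholded peaks found in both, red points the 12 summits of the attachment loci, and the blue square the unc-98 summit inside pcyt-1. The upstream summit of unc-112 stands apart at 236 and 213, and pat-4 is the red point farthest toward replicate 2.

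The 6 genes bound in the window lay on both sides of the typical strength of bound genes. Their strongest window signals had a median of 160 and ran from 122 to 448, against a median of 177 and a range of 114 to 1223 over all 1438 bound genes. Above the median of all bound genes were unc-112 and unc-98, and pat-3, unc-97, pat-6 and unc-95 were below it. The summits upstream of pat-2, deb-1 and pat-4, outside the window, had signals of 189 to 220 and so were each stronger than the window summits of those 4 genes.

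Of 50 partner genes of the same attachment structures, 11 (22%) had a thresholded summit in the window, and 34 had one in the locus, with backgrounds of 7.20% and 13.0% as above. Most partners had more upstream sequence than the median of 937 bp over all genes, up to 15218 bp. Longer loci can hold more summits, and the partner locus counts here and below were not adjusted for length. By structure, 7 of 28 genes for dense body and M-line proteins, 2 of 3 for contraction and actin, 1 of 5 for the extracellular matrix and 1 of 4 for the dystroglycan and dystrophin complexes had a window summit. None of 6 genes for the hemidesmosome-like organelles of the epidermis, which carry muscle force to the cuticle, had one, a count too small to set apart from 7.20%. The remaining 4 genes had none either, among them ina-1, the other α-integrin gene, which also had no thresholded summit in its locus. A summit somewhere in the locus was present at 22 of the 28 dense body and M-line genes, 3 of the 3 contraction and actin genes, 3 of the 5 matrix genes, 2 of the 4 dystroglycan and dystrophin genes, 1 of the 6 epidermal genes and 3 of the remaining 4. The epidermal gene was vab-10, which encodes a spectraplakin and was named after its values were seen. By the nearest 5′ end, or with the start of every transcript, vab-10 was also counted as bound. Neither the differences between these groups nor that between the 10 genes and their partners were tested. The dense body and M-line group was set by the partner list and included unc-23, which encodes a co-chaperone.

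Among the partners, the strongest window summit was that of unc-89, the giant M-line protein obscurin, with a signal of 321, 179 bp upstream. Next were unc-23, a BAG-family co-chaperone needed for muscle attachment (282, 7 bp downstream of the 5′ end), and cap-2, a subunit of actin capping protein (244). The capping protein summit also lay in the window of gmps-1. Syntrophin stn-1 (221), rsu-1 (202), whose product binds PINCH, and the troponin C gene pat-10 (184, also in the window of C46H11.6) followed. The summit of cap-1, the other capping protein subunit, was weaker, at 134, and also lay in the window of D2024.4.

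**Figure D3:**
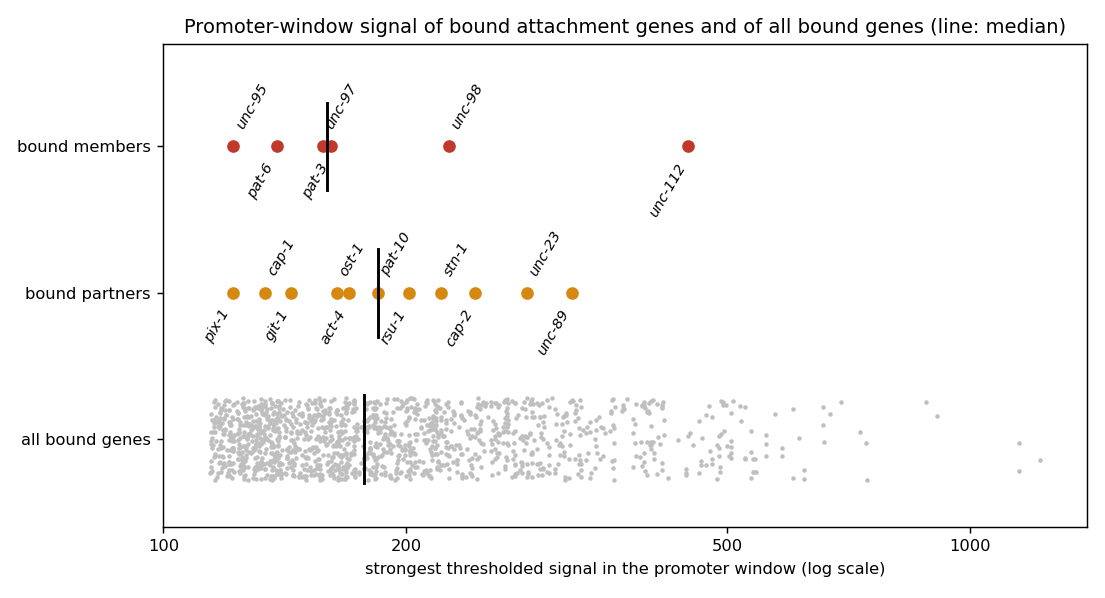
Strongest thresholded signal in the promoter window (logarithmic horizontal axis) of the 6 bound attachment genes, the 11 bound partners and all 1438 bound protein-coding genes, 1 point per gene, with vertical lines at the medians. The medians are 160, 184 and 177, and unc-112 is the attachment gene farthest to the right, at 448.

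The word GAGAGA lay under some of these summits and not under the strongest. Each window reached 75 bp to either side of the summit, and either strand counted. The word was present at 5 of the 12 (41.7%), against 45.2% of all 2575 summits and 12.9% of the 151 bases upstream of all 19973 genes. In the strongest peaks of each replicate alone the order was the other way, with 8 of 13 summits (61.5%) against 45.7% of all in replicate 1 and 6 of 10 (60%) against 44.2% in replicate 2. It was also the other way within 50 bp of the thresholded summits (41.7% against 33.7%) and within 150 bp (75% against 60.1%). The windows with it were those of pat-4, pat-6, pat-2, deb-1 and the intron of unc-112, and the unc-98 window inside pcyt-1 had it too. In the windows printed above, pat-4 had 6 overlapping or separate matches and pat-6 had 4, in both cases as TCTCTC on the strand of the gene. The strongest window, that of unc-112, had none, nor had either unc-97 window or either pat-3 window.

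Of the other words searched, the E-box CANNTG was at 7 of 12 (58.3%, against 51.7% of all summits and 41.4% of upstream windows). Its form CAGCTG was at none of the 12, against 7.26% of all summits. The GC box GGGCGG was at 1 (8.33%, against 10.4%) and AGATAA, which contains the GATA core, at 2 (16.7%, against 6.25% of all summits and 12.6% of upstream windows). The short POU word ATGCA was at 2 (16.7%, against 20.8% of all summits and 19.6% of upstream windows). The octamer ATGCAAAT, which contains ATGCA and is the classical POU site, was at none of the 12, against 0.854% of all summits, and neither was TAATTA (1.51%). With 12 windows these shares are descriptions only, and an absent word says nothing of whether the factor was there. The GC content of the windows ran from 37.7% in the unc-112 intron to 62.3% at the farther unc-97 summit, with a median of 46.4%, close to the 47.7% of all summits and above the 33.1% of the upstream windows.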

How the data were processed

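The data were narrowPeak lists of 2 biological replicates, made by the authors from alignments of immunoprecipitated and control reads, per the notes deposited with the files. The labels and notes do not name the aligner or the peak caller. Signal is the peak height deposited by the authors, whose scale is not stated, and −log10 q is as deposited by the authors. Because 1912 pooled peaks tied at the top q, ranks use signal. With no reads, depth is unknown and signals carry no interval. Only the ce11 lists were used, with Ensembl release 115 genes of WBcel235, the same build, and every peak lay within the chromosome lengths of that build. All thresholded peaks were in the pooled list. Coordinates are 1-based, and a summit is the deposited start plus the deposited offset plus 1.

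The 10 genes and the partner list were chosen with earlier results of these data known. Named genes were the 10, the 6 partners with the strongest window summit, and neighbours sharing a summit; C29F9.8, cap-1, ina-1, vab-10 and F08C6.18 were named after their values were seen. Where another protein-coding gene covered the 5′ end, the locus began at the 5′ end. Replicate peaks were matched by an overlap of at least 1 bp and then the nearest summit. Counts were set beside all protein-coding genes, with no test. Alternatives were other windows, the nearest 5′ end, all transcript starts, the 1287 strongest peaks, each replicate alone (its 2575 strongest peaks), merged summits, another neighbour and other motif windows; the q limit was added after the data were seen. Window counting was checked on simulated data. Python 3.11.15, numpy 2.4.6, pandas 2.3.3 and matplotlib 3.10.9 were used.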

Additional observations from a re-analysis of the deposited data

How the results depend on the processing

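No paired analysis was possible because the 2 replicates form 1 group. With each replicate alone, 5 to 6 of the 10 genes had a window summit, 7 to 9 had a locus summit, 10 to 13 summits lay in the loci, 11 to 13 partners were bound and GAGAGA was at 6 to 8 summits (8 of 13 for replicate 1 alone, 61.5%, against 45.7% of all its summits, and 6 of 10 for replicate 2 alone, 60%, against 44.2%), so the share, below that of all summits in the thresholded list, was above it in each replicate alone. Over all genes, 6.80% had a window summit with replicate 1 alone and 7.53% with replicate 2 alone. With only the 1287 strongest peaks, the counts were 2 genes with a window summit, 5 genes with a locus summit, 5 summits and 6 of the 50 partners. Of all genes, 3.78% then had a window summit and 7.19% a locus summit. With the window 2000 bp upstream, 19 of the 50 partners were bound, against 10% of all genes, and the median signal was 180. By nearest 5′ end 26 partners were bound, against 10.4% of all genes, and with every transcript start 21, against 8.01%. With pooled peaks at a q of at most 0.05, 21 partners were bound, against 15.0% of all genes, and 22 summits lay in the loci. Within 150 bp, GAGAGA was at 9 of 12 summits (75%, against 60.1% of all). Of 33 alternative values, 21 were within 1.5 times the main count or the replicate spread. Among these 21, merging summits within 150 bp could not change the count, since no neighbouring summits were closer than 199 bp. Depth was unknown, so no limit on undetected summits can be given.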

Other observations

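Most summit windows of these genes were rich in C and T on the strand of the gene, a pattern noticed on reading the sequences and not tested. Of the 13 windows, including that of unc-98 inside pcyt-1, 9 (69.2%) had over 60% C or T, and the median was 64.2%. The highest were pat-4 (74.2%), pat-6 (71.5%), deb-1 (71.5%) and the upstream summit of unc-112 (67.5%), although the last had no GAGAGA. The lowest were pat-2 (42.4%) and unc-98 (45%), whose GAGAGA matches read on the strand of the gene. Over all 2575 thresholded summits, on the strand of the gene with the nearest 5′ end, 31.3% of windows were over 60%, with a median of 54.3%, and over the 151 bases upstream of all genes 32% were, with a median of 56.3%. The 13 windows were instead read on the strand of the listed gene. At unc-52 and the farther pat-3 summit, the nearest 5′ end is on the opposite strand, so the measures are not quite alike.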
